A study of Mus musculus with 4 samples.

Results

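The axoneme is the microtubule core of the sperm tail and of motile cilia. Outer and inner dynein arms on its doublet microtubules slide the doublets against each other, radial spokes carry signals from the central pair of microtubules to these arms, the nexin link holds neighbouring doublets together, and tektins are filaments that lie along the doublet wall. In the testis the messenger RNAs of the sperm tail are made mainly in spermatocytes and round spermatids, and the tail is built as the spermatids elongate.

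The genes described here are 40 components of this structure: axonemal dynein chains, radial spoke and central pair proteins, nexin link and ruler proteins, tektins, factors that assemble the dynein arms, and the adenylate kinase Ak7. They were measured in the testis of wild type (WT) C57BL/6 mice and of mice labelled Ccnyl1 knockout, written Ccnyl1-/- here, at 2 months of age. Ccnyl1 encodes cyclin Y-like 1, and the mutants carry the tm1a allele (EUCOMM, Wtsi) in all tissues, a knockout-first gene trap that was bred through heterozygous parents. The study asked which transcripts of the testis depend on CCNYL1, and there were 2 mice per genotype, with 1 array per mouse. A gene was represented by probe sets whose annotation names that gene alone, and by the brightest of them where there were several. Of the 40 genes, 34 had such a probe set, beside 18193 genes in the whole table, and 32 of them reached a mean of 32 over the arrays and were tested, beside 15268 genes in all. Dnah3, Dnah10, Dnai1, Dnai2, Rsph10b and Dnaaf3 had no probe set under these symbols.

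Values are MAS5 signals, intensities on a linear scale, and the differences below are on the scale of log2(signal + 16), Ccnyl1-/- minus WT, from limma. The 16 added to each signal shrinks the difference of dim genes. The level of one probe set was not read against that of another as an amount of RNA, since probes differ in brightness. The summed signals of markers below add raw signals, so that bright probe sets weigh most in them. Ccnyl1 itself had signals of 2256 and 2425 in the WT mice against 921 and 969 in the mutants, a difference of -1.29 (adjusted p = 0.00463, limma). The knockout arrays thus had 40.4% of the WT signal, and the position of the probes relative to the gene trap was not analysed here. The 4 arrays correlated with each other between 0.9773 and 0.9799 on the log2 scale.

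Before the values, the stretches upstream of these genes that share a sequence are shown, because genes of motile cilia are known to be bound by RFX factors at the X-box, an inverted repeat. The form searched was GTTNC and GNAAC parted by 2 to 5 bases, which reads the same on both strands, in the 250 bases before each RefSeq transcription start (GRCm38.p6). This form was written down after the upstream sequences of these genes had been seen. It was present in 10 of 36 promoters of the 33 listed genes that the table holds, or 27.8%, of which 2 are overlapping promoters of Tekt2, and in 745 of all 32851 promoters, or 2.27%. The 9 genes with the form were Dnaaf2, Dnah6, Dnah9, Hydin, Spag16, Spag17, Tekt2, Tekt4 and Tekt5. The matches nearest to the start are printed 5′ to 3′, with the matched letters in capitals.
Tekt2, chr4:126325691-126325731, minus strand: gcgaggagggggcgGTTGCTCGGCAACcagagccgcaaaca
Tekt4, chr17:25471540-25471580, plus strand: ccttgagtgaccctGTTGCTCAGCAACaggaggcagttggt
Dnah6, chr6:73221641-73221681, minus strand: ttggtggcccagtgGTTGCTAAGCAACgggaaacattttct
Hydin, chr8:110266942-110266976, plus strand: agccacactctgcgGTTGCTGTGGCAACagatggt
Dnaaf2, chr12:69198430-69198460, minus strand: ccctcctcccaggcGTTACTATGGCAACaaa
For comparison, the 250 bases before the start of Ccdc39, the gene with the largest difference below, hold no match, and the last 100 of them are shown.
Ccdc39, chr3:33844311-33844410, minus strand: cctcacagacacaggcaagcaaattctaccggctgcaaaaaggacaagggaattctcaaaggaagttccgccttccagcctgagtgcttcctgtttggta
A match describes letters only, and binding was not measured. The 9 genes with the form gave 3 positive and 6 negative differences between -0.13 and 0.084, and the other 21 tested genes with a promoter gave 10 positive and 11 negative ones between -0.13 and 0.30. The RFX genes examined gave differences of -0.17 for Rfx1, -0.025 for Rfx2, 0.023 for Rfx3, 0.014 for Rfx4 and -0.0071 for Rfx7. None of them passed the test, and the dimmer probe sets of these genes are not shown. Foxj1, the regulator of motile cilia, had a difference of -0.13.

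None of the 32 tested axoneme genes passed the test at an adjusted p of 0.05, where 3 of 15268 genes did (0.0196%). Their lowest adjusted p was 0.554. The differences ran from -0.13 to 0.30, with a median of -0.051, beside a median of -0.0004 over all genes tested and of -0.024 over the 4537 genes whose signal averaged 1000 or more, to which 28 of the 32 belong. The median of the 32 was -0.015 without WT mouse 2, -0.027 under quantile normalization and -0.13 with arrays scaled to one median. For genes averaging 1000 or more it was -0.0098 under quantile normalization and -0.10 with arrays scaled to one median. Ccdc39 and Dnah1 were higher and Tekt2 was lower at an unadjusted p under 0.05, so that 2 of 32 were called higher and 1 of 32 lower by that looser rule, beside 2.84% and 3.44% of all genes, and 6.79% lower among the bright ones. In a whole testis, fewer cells of a type and less RNA per cell cannot be told apart.

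**Figure D1:**
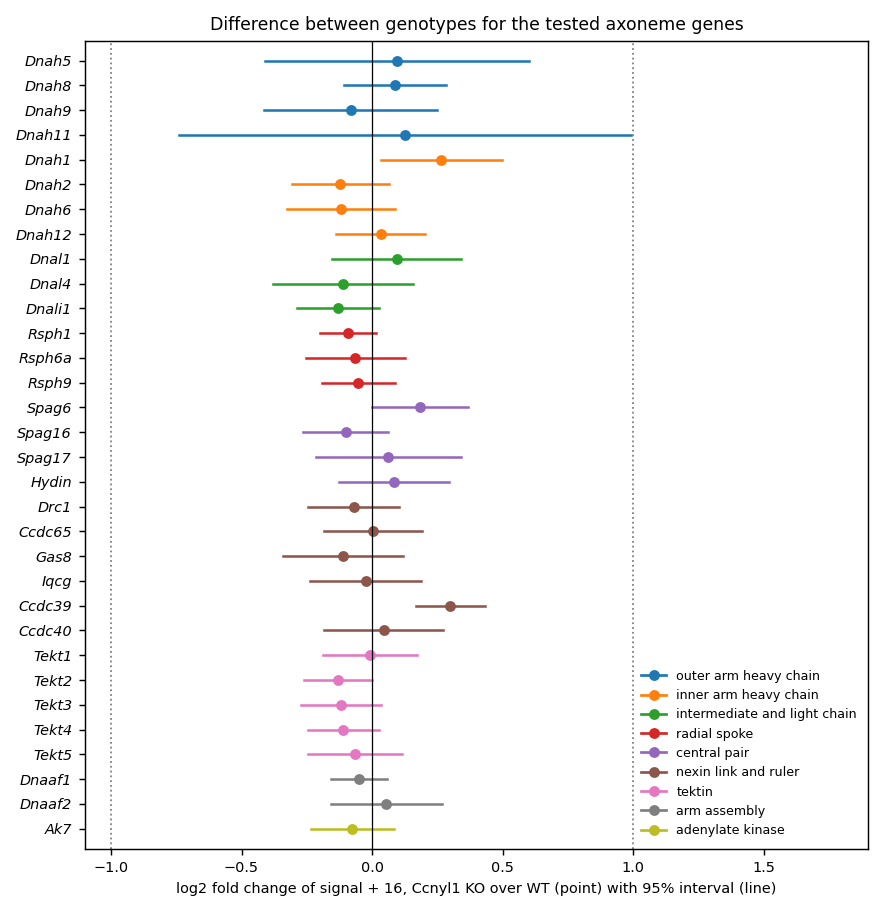
Each point is the log2 fold change (signal + 16, Ccnyl1-/- over WT) of a tested axoneme gene and each line its 95% interval from limma, coloured by role; dotted lines mark 2-fold. All 32 intervals lie within the dotted lines, and those of Ccdc39, Dnah1 and Tekt2 leave out 0.

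On the scale of log2(signal + 16), all 32 intervals lay within 2-fold either way, which held for 83.4% of all genes and for 99.8% of those averaging 1000 or more. For 30 of 32 genes the interval lay within 1.5-fold, beside 60.0% of all genes and 97.9% of the bright ones. The other two, Dnah5 and Dnah11, were dim, and without the 16 added the interval of Dnah11 ran from -1.004 to 1.33, past 2-fold, while those of the other 31 stayed within it. For all but Ccdc39, Dnah1 and Tekt2 the interval held 0, and a miss of the threshold does not show that the levels were equal.

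The ruler and nexin link genes held the largest difference. Ccdc39 and Ccdc40 form the ruler that sets the repeat of arms and spokes along each doublet. The probe set 1429781_s_at of Ccdc39 had signals of 6341 and 6147 in the WT mice against 7454 and 7930 in the mutants. Both knockout mice lay above both WT mice, with means of 7692 ± 336 and 6244 ± 138 (SD, n = 2 mice each). The difference was 0.30 (95% interval 0.17 to 0.43, SE 0.0575), which is 123% of the WT signal, with an adjusted p of 0.554 from limma. It was positive under all 17 alternatives, which include leaving out each mouse in turn, between 0.22 and 0.37, with adjusted p between 0.183 and 0.86. A second probe set, 1429780_at, had signals of 566 and 571 in WT against 705 and 772 in Ccnyl1-/- testis, a difference of 0.37 (adjusted p = 0.737, limma). Both probe sets were thus higher in the knockout mice, but they read the same RNA samples. The dimmest, 1440504_at, was under the minimum in every mouse, at 1.81 to 15.5. Ttc14, which overlaps Ccdc39 in the RefSeq table, had 10 probe sets, of which 9 were positive, between -0.22 and 0.61, and 0 passed the test. Its part in the Ccdc39 signal was not tested.

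Ccdc40, the partner of Ccdc39, had signals of 1423 and 1665 in WT against 1624 and 1551 in Ccnyl1-/- testis, a difference of 0.044, and the genotypes overlapped. Among the nexin link genes, Gas8 had the most negative difference at -0.11, with 1050 and 1136 in WT against 976 and 1045 in Ccnyl1-/- testis. The knockout mice were lower by little, and the WT mice differed from each other by 0.11 as well. Drc1, the scaffold of the link, gave -0.071, Iqcg gave -0.025 and Ccdc65 gave 0.0034.

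**Figure D2:**
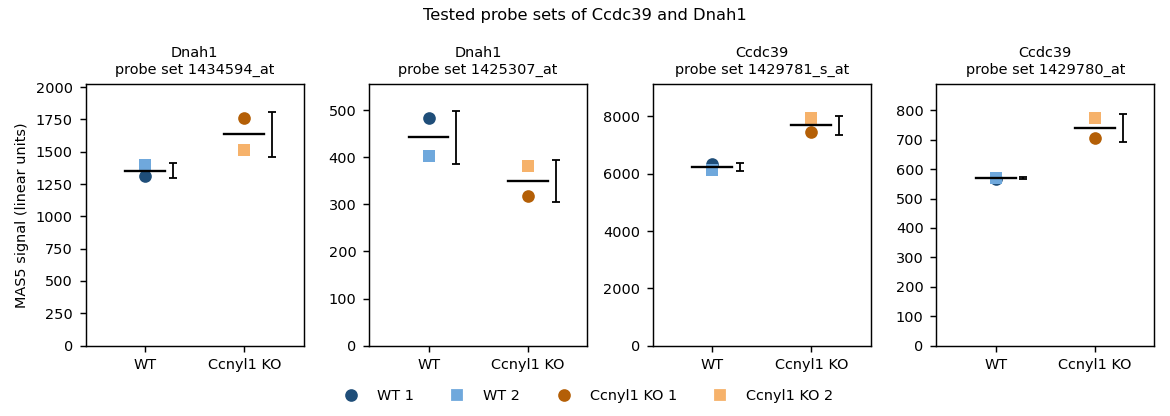
MAS5 signal (linear, from 0) of the tested probe sets of Dnah1 and Ccdc39 in each mouse; long bars are genotype means and the error bars beside them the SD of 2 mice. Both Ccdc39 probe sets are higher in the knockout mice, while those of Dnah1 lie in opposite directions.

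The inner arm heavy chains are the motors that shape the bend of the tail. Dnah1 had the second largest difference of the 32 genes. Its brighter probe set 1434594_at read 1314 and 1394 in WT against 1757 and 1512 in Ccnyl1-/- testis, with means of 1354 ± 57.0 and 1634 ± 173 (SD, n = 2 mice each). The genotypes did not overlap, and the difference was 0.27 (95% interval 0.035 to 0.50, adjusted p = 0.797, limma). The dimmer probe set 1425307_at gave the opposite: 482 and 402 in WT against 318 and 381 in Ccnyl1-/- testis, a difference of -0.33 (adjusted p = 0.83, limma). Averaged over both, Dnah1 had a difference of -0.0305, so that its direction rests on the choice of probe set. Dnah2 had 3976 and 3661 in WT against 3720 and 3299 in Ccnyl1-/- testis, a difference of -0.12 with overlapping genotypes. Dnah6 also gave -0.12, and Dnah12 gave 0.033.

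Of the outer arm heavy chains, Dnah8, Dnah9 and Dnah11 differed more between mice of one genotype than between genotypes. Dnah8 and Dnah17 are the heavy chains of the sperm outer arm. Dnah8 had 8735 and 9752 in WT against 9010 and 10660 in Ccnyl1-/- testis, a difference of 0.086. Dnah17 was under the minimum and untested, with 47.2 and 4.51 in WT against 8.76 and 4.50 in Ccnyl1-/- testis, so its single probe set gives no level. Dnah5, Dnah9 and Dnah11 are known from the outer arms of airway cilia. Dnah9 had 459 and 530 in WT against 425 and 509 in Ccnyl1-/- testis, a difference of -0.083. Dnah11 had 38.3 and 57.3 in WT against 40.5 and 67.8 in Ccnyl1-/- testis, a difference of 0.13. Dnah8, Dnah9 and Dnah11 were each higher in the mouse numbered 2 of both genotypes, by 0.16 to 0.57 on the log2 scale, so that the genotypes overlapped. Of the 32 tested genes, 8 were higher in both mice numbered 2, among them Dnah6, Rsph1 and Gas8, and 7 were lower in both. The pattern was thus not particular to the outer arm. The summed signal of the 5 Leydig cell markers with a probe set was lower in the mice numbered 2. It was 7149 and 3935 in WT against 9293 and 5220 in Ccnyl1-/- testis, most of it from Cyp17a1. Not every marker followed the sum: Star and Hsd3b1 were higher in Ccnyl1-/- mouse 2 (740 and 998) than in mouse 1 (518 and 924). The part of these cells in the outer arm values was not tested. Over all probe sets the difference between the mice of one genotype correlated at 0.014 with that of the other. The labels give the numbers as biological replicates and state no pairing. Whether mice of the same number shared a condition was not tested. Dnah5 had 102 and 109 in WT against 115 and 112 in Ccnyl1-/- testis, which did not overlap, yet its difference of 0.094 had an interval of -0.41 to 0.60 at this low signal.

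**Figure D3:**
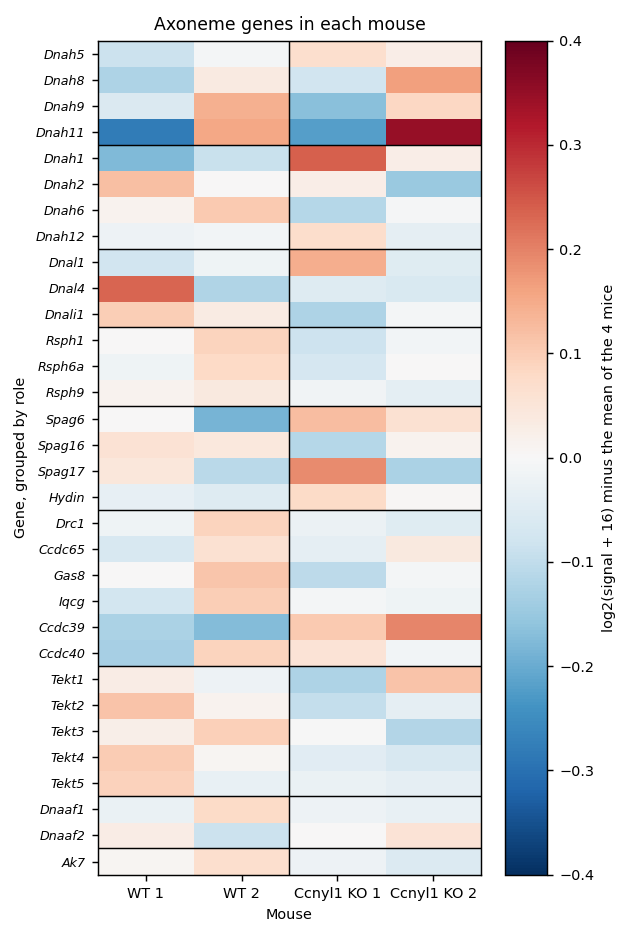
Heat map of log2(signal + 16) of each tested axoneme gene (lines, grouped by role) in each mouse (columns), minus the mean of the 4 mice; red is above and blue below that mean. Dnah11 spans the widest range, and no mouse or genotype is uniformly red or blue.

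The smaller chains bind to the heavy chains and steer them. Dnal1, a light chain of the outer arm, had 919 and 958 in WT against 1074 and 937 in Ccnyl1-/- testis, a difference of 0.095. Dnali1, a light intermediate chain of the inner arm, had 4505 and 4304 in WT against 3859 and 4179 in Ccnyl1-/- testis, a difference of -0.13. Both knockout mice were below both WT mice for Dnali1, and the genotypes overlapped for Dnal1. Dnal4 gave -0.11, and its WT mice alone differed by 0.35. Dnai1 and Dnai2, the intermediate chains of the outer arm, are named Dnaic1 and Dnaic2 in the annotation, symbols for which the RefSeq table gives the listed names as synonyms, and were kept out of the counts. Dnaic1 had 704 and 773 in WT against 817 and 791 in Ccnyl1-/- testis, a difference of 0.12, and Dnaic2 had 1917 and 1913 in WT against 1584 and 2227 in Ccnyl1-/- testis, a difference of -0.028. Neither passed the test.

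The radial spoke genes gave negative differences in 3 of 3 tested members, and in every alternative that tested them, though none passed the test. All 3 average 1000 or more, where 60.1% of all genes were negative, and 83.9% with arrays scaled to one median. Rsph1, of the spoke head, had 19406 and 20623 in WT against 18310 and 19240 in Ccnyl1-/- testis, a difference of -0.092. Rsph6a, the sperm paralog of Rsph4a, had 1875 and 2007 in WT against 1811 and 1899 in Ccnyl1-/- testis, a difference of -0.064. The genotypes did not overlap for Rsph1 and overlapped for Rsph6a. Rsph4a, which serves motile cilia, was under the minimum, at 15.1 and 8.26 in WT against 24.4 and 17.7 in Ccnyl1-/- testis. Rsph9 gave -0.052.

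The central pair genes gave differences of both signs. Spag6 had 3418 and 3000 in WT against 3716 and 3561 in Ccnyl1-/- testis, a difference of 0.18 (95% interval -0.0011 to 0.37, adjusted p = 0.82, limma). Both knockout mice were above both WT mice, yet the WT mice differed from each other by 0.19. Spag16 had 3684 and 3650 in WT against 3269 and 3577 in Ccnyl1-/- testis, a difference of -0.10, with the knockout mice below. Spag17 gave 0.063 and Hydin, which forms a projection of the central pair, gave 0.084.

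The tektins gave negative differences in 5 of 5 genes, though Tekt1 turned to 0.033 under quantile normalization and reached 0.11 without 1 mouse, and for 3 of 5 the genotypes did not overlap. All 5 average 1000 or more, where 60.1% of all genes were negative and 27.6% were lower without overlap, so these counts are a description. Tekt2, which is needed for sperm motility in mice, had 8980 and 8380 in WT against 7758 and 8090 in Ccnyl1-/- testis, with means of 8680 ± 424 and 7924 ± 235 (SD, n = 2 mice each). The knockout mice were below the WT mice, and the difference was -0.13 (95% interval -0.26 to -0.0003, adjusted p = 0.82, limma). Tekt3 gave -0.12, Tekt4 gave -0.11 and Tekt5 gave -0.064. Tekt1 gave -0.0082, with overlapping genotypes. The median of the 5 tektins, as a log2 deviation from the mean of the 4 mice, was 0.092 and 0.0076 in the WT mice and -0.046 and -0.037 in the Ccnyl1-/- mice.

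Dynein arms are put together in the cytoplasm before they reach the axoneme, with the help of the Dnaaf proteins. Dnaaf1 had 18011 and 19311 in WT against 18088 and 17951 in Ccnyl1-/- testis, a difference of -0.0496. Dnaaf2 had 1351 and 1245 in WT against 1323 and 1374 in Ccnyl1-/- testis, a difference of 0.055. The genotypes overlapped for both. Ak7, which balances adenine nucleotides in cilia and sperm tails, had 2998 and 3125 in WT against 2937 and 2871 in Ccnyl1-/- testis, a difference of -0.076 without overlap.

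**Figure D4:**
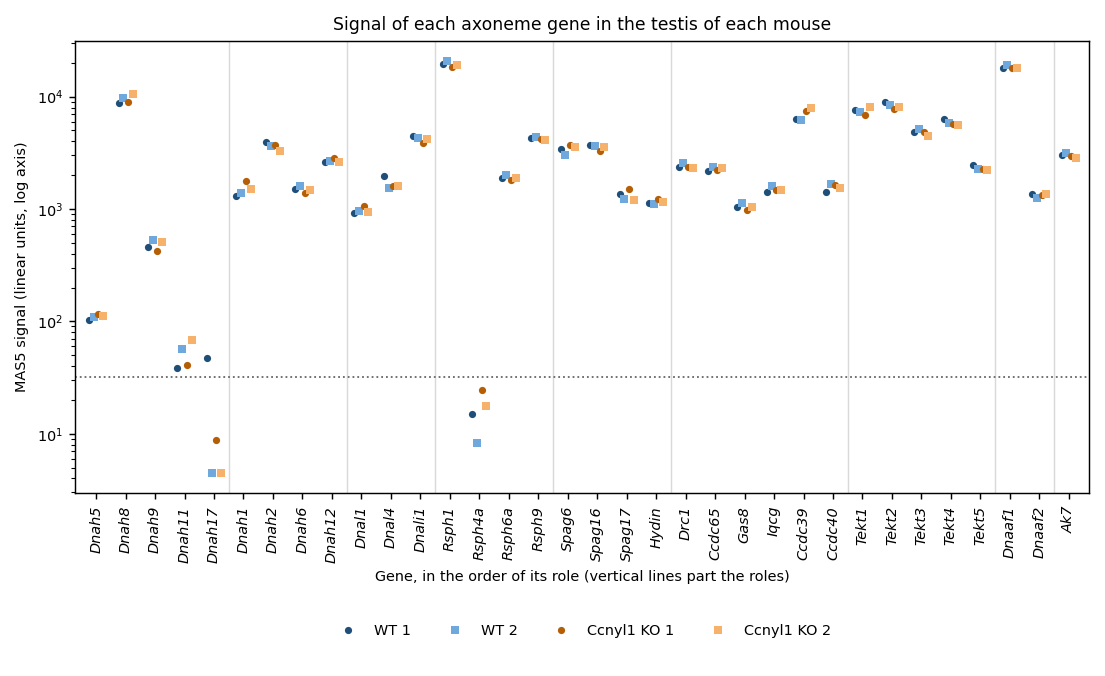
MAS5 signal (log axis) of the 34 axoneme genes with a probe set in each of the 4 mice, grouped by role; the dotted line is the minimum mean signal of 32. Dnah17 and Rsph4a lie under it, and for most other genes the 4 mice nearly coincide.

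Over all roles, 13 of the 32 differences were positive and 19, or 59.4%, negative, where 50.1% of all genes and 60.1% of those averaging 1000 or more were negative. The genotypes did not overlap in 16 of the 32 genes. In 5 of 32 (15.6%) the knockout mice were higher, beside 17.7% of all genes, and in 11 of 32 (34.4%) lower, beside 18.3%. Among genes averaging 1000 or more, knockout mice were lower without overlap in 11 of 28 axoneme genes (39.3%) and in 27.6% of all such genes, and higher in 4 of 28 (14.3%) and in 14.4%. The difference between genotypes was larger than the difference between the mice of either genotype for 13 of the 32 (40.6%), beside 23.6% of all genes and 28.9% of those averaging 1000 or more. The median level of the 32 genes, as a log2 deviation from the mean of the 4 mice, was 0.0011 and 0.035 in the WT mice and -0.023 and -0.0096 in the Ccnyl1-/- mice.

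**Figure D5:**
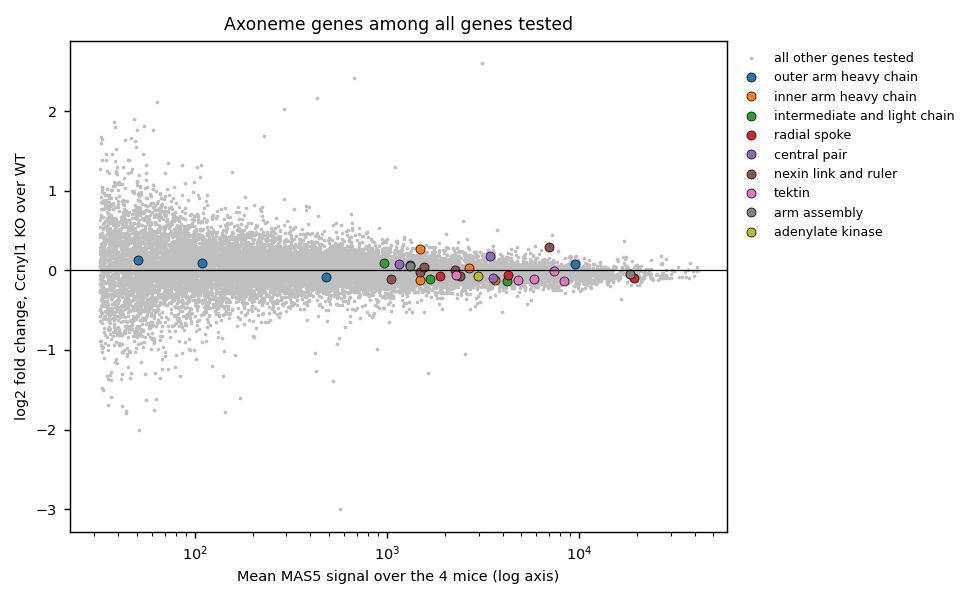
Log2 fold change (Ccnyl1-/- over WT) against the mean MAS5 signal of the 4 mice (log axis) for all 15268 genes tested in grey and the 32 axoneme genes coloured by role. The axoneme genes lie between -0.13 and 0.30, with Ccdc39 the highest, and 28 of them average 1000 or more.

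Other probe sets of the same genes gave a check on these readings. Of 13 genes with more than 1 probe set, 11 had at least 2 that were tested, and the differences had the same sign for 7 of them and different signs for 4, namely Dnah1, Dnah8, Dnal1 and Spag16. None of the 12 further tested probe sets passed the test. The largest of their differences belonged to dim probe sets: -0.78 for 1454103_at of Dnah2, with 55.9 and 52.9 in WT against 10.5 and 47.6 in Ccnyl1-/- testis, and -0.50 for 1425692_a_at of Dnah8, with 65.1 and 64.6 in WT against 29.9 and 55.3 in Ccnyl1-/- testis. In both, Ccnyl1-/- mouse 1 was the lowest. A probe set that names Dnaaf2 together with Rpl36al and Rpl36a was not used.

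The cells that carry these transcripts were followed by their markers. Markers of elongating spermatids gave 3 positive and 9 negative differences between -0.15 and 0.18, with a median of -0.047. Of the protamines among them, Prm1 gave 0.094 and Prm2 gave -0.099. The summed signal of these markers was 288650 and 294658 in WT against 294288 and 283895 in Ccnyl1-/- testis. Markers of spermatocytes gave 6 positive and 3 negative differences with a median of 0.045 (summed signal 52838 and 55047 in WT, 56258 and 56581 in Ccnyl1-/- mice). Markers of round spermatids gave 5 positive and 4 negative ones with a median of 0.0022. All of these markers with a probe set averaged 1000 or more, where 60.1% of all genes were negative. None of them passed the test, and their part in the differences of the axoneme genes was not tested. The efferent ducts hold multiciliated cells that share the axoneme: of 10 of their markers 7 had a probe set, and Cdhr3, Tmem212 and Fam216b among them lay at 38.9 or less in every mouse, of which Fam216b was higher in both knockout mice (4.24 and 17.2 in WT against 38.9 and 27.7). Ccno had 142 and 126 in WT against 178 and 157 in the mutants, a difference of 0.29 that did not pass the test, and Foxj1 lay between 514 and 654. The summed signal of the 7 was 15530 and 14898 in WT against 14861 and 14612 in Ccnyl1-/- testis. Most of it came from Deup1 and Fam183b, which averaged 8264 and 5938. Which cells of the testis gave these signals was not tested, so the sum is not read as a level of efferent duct cells. Of 10 epididymis markers 8 had a probe set and 4 were tested. Of these, 3 were positive and 1 negative with a median of 0.36, and none passed the test. Lcn8 (12.3 and 26.2 in WT, 58.2 and 54.1 in the mutants) and Defb41 were higher without overlap. Lcn9 and Adam7, both untested, were lower without overlap. The part of all these cells in the differences was not tested.

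Of 107 further axoneme genes on a list of docking, wall, spoke and assembly proteins, 83 were tested and none passed the test. Their median was -0.041, with 27 positive and 55 negative differences and 1 at 0. At an unadjusted p under 0.05, 12 of 83 (14.5%) were lower and 2 of 83 (2.41%) higher, beside 3.44% and 2.84% of all genes and, among genes averaging 1000 or more, 6.79% lower. Of all genes 50.1% were negative, and 60.1% of those averaging 1000 or more. The list was chosen with results of these arrays known, so these shares are a description. The largest differences among them were 0.95 for Rsph3a and 0.29 for Iqub, both of the radial spoke, and -0.51 for Cfap61 and -0.41 for Iqca. The dimmer probe sets of Cfap61 gave -0.23 and, in the opposite direction, 0.58. Rsph3a read 68.5 and 78.8 in WT against 150 and 165 in Ccnyl1-/- testis (adjusted p = 0.645, limma). Its second probe set, under the minimum, went the other way, with 12.2 and 9.65 in WT against 4.39 and 3.50 in Ccnyl1-/- testis. A probe set shared by Rsph3a and Rsph3b, near 21816, gave -0.029. Iqca, listed with the nexin link, had 1621 and 1203 in WT against 1119 and 973 in Ccnyl1-/- testis (adjusted p = 0.78, limma). Its second probe set gave -0.53.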

How the data were processed

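Testis RNA of 2 WT and 2 Ccnyl1-/- mice was hybridised to Affymetrix mouse arrays. Per the labels, mice of the same genotype are biological replicates. The deposited values are signals made by the authors with MAS5 and global scaling, linear intensities, and the submitters' processing notes name MAS5. The stated target is 100, whereas each deposited array has a trimmed mean of 500.0, so the offset and minimum act at a lower brightness than they would on that scale. Of its 45101 probe sets, 64 controls were left out. The platform annotation gave 34945 probe sets 1 gene symbol, 932 several and 9160 none.

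A linear model with genotype as its sole term was fitted to log2(signal + 16) by limma 3.58.1 under R 4.3.3, using moderated variances that follow a trend with brightness. It covered the 32438 probe sets averaging 32 or more, all of which entered the Benjamini-Hochberg adjustment. The procedure was run on simulated data with variances drawn from its own fitted model. The planted changes were larger than the differences of the axoneme genes, so detection at those sizes was not tested. Arrays give no count, and the number of mice limits the precision. Alternatives changed the offset, minimum, scaling, variance model, test, probe set and mice. The replicate numbers of the labels were not treated as pairs. The rule for named genes gave every listed gene its difference, and the signal of each mouse to genes at an unadjusted p under 0.05, to the largest difference of each sign within a role, and to the paralogs Dnah5, Dnah8, Dnah9, Dnah11, Dnah17, Rsph4a and Rsph6a. Dnal4, Ccdc40, Dnaic1 and Dnaic2 were named with values seen. The genes, lists and tests were chosen with earlier results of these data known. Promoter sequences are from RefSeq, GRCm38.p6. Proteins were not analysed here.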

Additional observations from a re-analysis of the deposited data

How the results depend on the processing

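No axoneme gene passed the test of limma under any of the 17 alternatives, nor with Dnaic1 and Dnaic2 counted, and of 538 differences of single genes 511 kept their direction and 27, in 14 genes, did not. The number at an unadjusted p under 0.05 was 3, and it was 7 after scaling the arrays to one median, 4 with robust eBayes, 0 without the trend and 1 (Ccdc39) by the methods' t-test on the same values, which called 0 after Benjamini-Hochberg adjustment. With the replicate number as a block, 0 genes passed (4 at an unadjusted p under 0.05). The labels state no pairing of mice by number, and the differences between the mice of the genotypes correlated at 0.014. The median of the 32 genes was -0.027 under quantile normalization, -0.13 with arrays scaled to one median, and -0.064 to -0.015 when 1 mouse was left out, the latter without WT mouse 2. Scaling to one median moved the median of all genes to -0.075 and left 8 positive differences, so that 75% of the axoneme genes were negative, beside 66.7% of all genes. It turned Dnah12 to -0.045, Spag17 to -0.015, Ccdc65 to -0.074, Ccdc40 to -0.034 and Dnaaf2 to -0.023. Quantile normalization turned Tekt1 to 0.033. The mean over the probe sets of a gene turned Dnah8 to -0.21, Dnah1 to -0.0305 and Dnal1 to -0.058. It kept Dnah2 negative but moved it from -0.12 to -0.45 (unadjusted p = 0.0417, adjusted p = 0.86, limma). In that setting 2 of the 32 genes had an unadjusted p under 0.05. Leaving out 1 mouse at a time gave -0.035 to 0.21 for Dnah8, -0.21 to 0.042 for Dnah9, -0.16 to 0.41 for Dnah11, -0.021 to 0.087 for Dnah12, -0.0023 to 0.19 for Dnal1, -0.29 to 0.064 for Dnal4, -0.095 to 0.22 for Spag17, -0.060 to 0.067 for Ccdc65, -0.11 to 0.061 for Iqcg, -0.068 to 0.16 for Ccdc40, -0.13 to 0.11 for Tekt1, -0.10 to 0.0007 for Dnaaf1 and -0.0034 to 0.11 for Dnaaf2. Counting Dnaic1 and Dnaic2 and rescaling the signals to the stated target were chosen after seeing the data. The causes were not tested.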
